A study of Mus musculus with 10 samples.

Results

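Imprinted genes are expressed mainly from the copy inherited from the father or mainly from the copy inherited from the mother. The choice is set by DNA methylation laid down in the germ line at an imprinting control region, and in the early embryo it is held in place by ZFP57, a zinc finger protein that binds methylated DNA, with its partner TRIM28 and the maintenance enzyme DNMT1. Many paternally expressed genes promote fetal and placental growth, and many maternally expressed genes restrain it, so the set has long been followed in embryonic stem (ES) cells as they differentiate.

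The set comprised 39 genes chosen by name from 18 imprinted loci, of which 19 are known as paternally expressed, 19 as maternally expressed and 1 (Gnas) has transcripts of either kind. All 39 were among the 22878 genes listed, and 35 had at least 1 read in every library. The allele given beside a gene is the one known from the mouse embryo or placenta. Reads were not assigned to alleles, so the values are totals over both copies.

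The libraries were polyA RNA-Seq of R1 mouse ES cells stably carrying, from a lentivirus, a short hairpin RNA against Smyd5 (shSmyd5) or against luciferase (shLuc, the control). SMYD5 is a histone methyltransferase studied in these cells for its part in H4K20me3-marked heterochromatin. Each line was sampled as ES cells, passaged on gelatin with LIF and the GSK3 inhibitor CHIR9901 to be rid of feeder cells, and as embryoid bodies (EBs) after 24 h, 6 days, 10 days and 14 days without LIF in low attachment dishes. There was 1 library for each of these 10 conditions, so a fold at a single stage has no replicate check, and each line is a single selected culture.

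The shallowest library (shLuc ES cells) held 3895541 reads in genes and the deepest (shLuc day 6 EBs) 43377825. Smyd5 itself was at an RPKM (the read count divided by the transcript's length and the library's depth) of 4.51, 0.891, 0.492, 9.14 and 6.88 in shSmyd5 cells, against 29.7, 10.7, 15.4, 24.95 and 13.1 in shLuc cells, where the order here and below is ES cells, 24 h, day 6, day 10 and day 14. The knockdown was thus deepest at day 6 and least at day 14, where the shLuc level was 1.89-fold that of shSmyd5. Pluripotent cell markers (10 genes) summed to an RPKM of 2553 in shSmyd5 ES cells and 3190 in shLuc ES cells, and to 103 in both lines at day 14. In every library all 10 were detected. Markers of primitive and visceral endoderm (14 genes) summed to 73.5, 132, 2312, 3713 and 7300 in shSmyd5 cells, against 75.3, 41.6, 280, 2307 and 5675 in shLuc cells. Fibroblast and mesenchyme markers (14 genes) summed to 105, 99.5, 84.0, 591 and 2653 in shSmyd5 cells, against 104, 60.9, 53.5, 1185 and 4224 in shLuc cells. Neural markers (9 genes found) summed to 165, 242, 96.0, 21.4 and 17.3 in shSmyd5 cells, against 187, 206, 89.2, 97.3 and 76.0 in shLuc cells. The endoderm sums were thus higher in shSmyd5 at all 4 EB stages, the mesenchyme sums higher at 24 h and day 6 and lower at days 10 and 14, and the neural sums lower at days 10 and 14. At day 6 the neural sums hid members apart. Of 7 at an RPKM of 3 or more, 5 were at least 2-fold lower in shSmyd5 and 0 higher. Among all genes at day 6, 19.4% were lower and 8.18% higher by that rule. EBs are mixtures in which fewer cells of a type and less RNA per cell cannot be told apart.

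The promoters of 4 members whose results are described below are shown because each holds the 6 letters TGCCGC (or GCGGCA, the same letters on the other strand), the core that ZFP57 reads when it is methylated. They are RefSeq sequences of mouse build GRCm38.p6, from 250 bases before to 50 bases after a listed start, with the core in capitals. The windows are chr11:12037371-12037670 on the - strand for Grb10, chr2:157559828-157560127 on the + strand for Nnat, chr10:13090582-13090881 on the + strand for Plagl1 and chr2:152686898-152687197 on the + strand for Mcts2.
Grb10: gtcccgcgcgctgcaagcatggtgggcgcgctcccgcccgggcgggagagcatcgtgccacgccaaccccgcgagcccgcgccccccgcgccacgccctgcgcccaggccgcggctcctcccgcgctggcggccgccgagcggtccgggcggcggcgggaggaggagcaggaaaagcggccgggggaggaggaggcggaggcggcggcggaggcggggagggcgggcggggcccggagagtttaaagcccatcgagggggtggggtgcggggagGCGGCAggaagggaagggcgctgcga
Nnat: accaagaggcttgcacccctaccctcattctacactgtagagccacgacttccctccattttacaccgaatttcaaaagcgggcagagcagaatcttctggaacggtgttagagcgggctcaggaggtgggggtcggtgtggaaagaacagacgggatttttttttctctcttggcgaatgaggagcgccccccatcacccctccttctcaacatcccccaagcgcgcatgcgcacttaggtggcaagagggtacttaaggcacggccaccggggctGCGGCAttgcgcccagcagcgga
Plagl1: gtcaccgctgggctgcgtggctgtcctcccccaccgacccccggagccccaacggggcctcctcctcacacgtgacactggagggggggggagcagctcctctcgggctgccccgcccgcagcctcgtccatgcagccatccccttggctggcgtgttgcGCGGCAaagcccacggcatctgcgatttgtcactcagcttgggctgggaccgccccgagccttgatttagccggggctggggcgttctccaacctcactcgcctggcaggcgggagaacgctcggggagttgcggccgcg
Mcts2: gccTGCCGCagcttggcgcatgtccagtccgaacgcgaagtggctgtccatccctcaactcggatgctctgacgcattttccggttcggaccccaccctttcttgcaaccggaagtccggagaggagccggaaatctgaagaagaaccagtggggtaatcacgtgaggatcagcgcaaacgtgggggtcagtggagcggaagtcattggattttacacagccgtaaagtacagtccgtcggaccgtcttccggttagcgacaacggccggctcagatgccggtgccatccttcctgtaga
RefSeq windows were matched for 32 of the 39 members. TGCCGC, searched on both strands, was found for 9 of these 32 genes (28.12%), which are Grb10, Igf2, Mcts2, Meg3, Mest, Nnat, Plagl1, Snrpn and Zim1, against 3527 of all 27025 genes (13.05%). The core ATGGCGG of YY1, a zinc finger protein with repeated sites in some imprinting control regions, was found for Meg3, Mkrn3 and Ppp1r9a, 3 of 32 (9.375%), against 1268 of 27025 (4.692%). The 2 motifs can overlap by 4 letters and were counted separately. The windows of the members were richer in G and C, with a median of 58.0% and 13 CpG against 52.7% and 7 CpG over all windows, and a match is no evidence of binding.

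Most of the set rose as the cells differentiated. By edgeR's quasi-likelihood test, fitted to the read counts of all 10 libraries with the stage and the line as terms, 36 members passed the filter of a mean RPKM of 1 and 31 of them changed over the stages at an adjusted p under 0.05, against 65.3% of the 12277 genes tested. All 16 paternally expressed members tested were among the 31, with 14 of 19 maternally expressed members and Gnas. The 5 with no call were Ppp1r9a, Ascl2, Cd81, Nap1l4 and Grb10, of which Grb10 was nearest (adjusted p = 0.0539).

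Measured as EBs of days 6 to 14 over ES cells and 24 h EBs, 23 members rose (28.8% of all genes did) and 3 fell (25.1% of all genes did). The median log2 fold of the 36 members was 1.38, against 0.05 over all genes. The 16 paternally expressed members had a median of 1.65 and the 19 maternally expressed members 0.72. In these comparisons the shSmyd5 and shLuc libraries of a stage stood in for replicates of that stage.

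**Figure D1:**
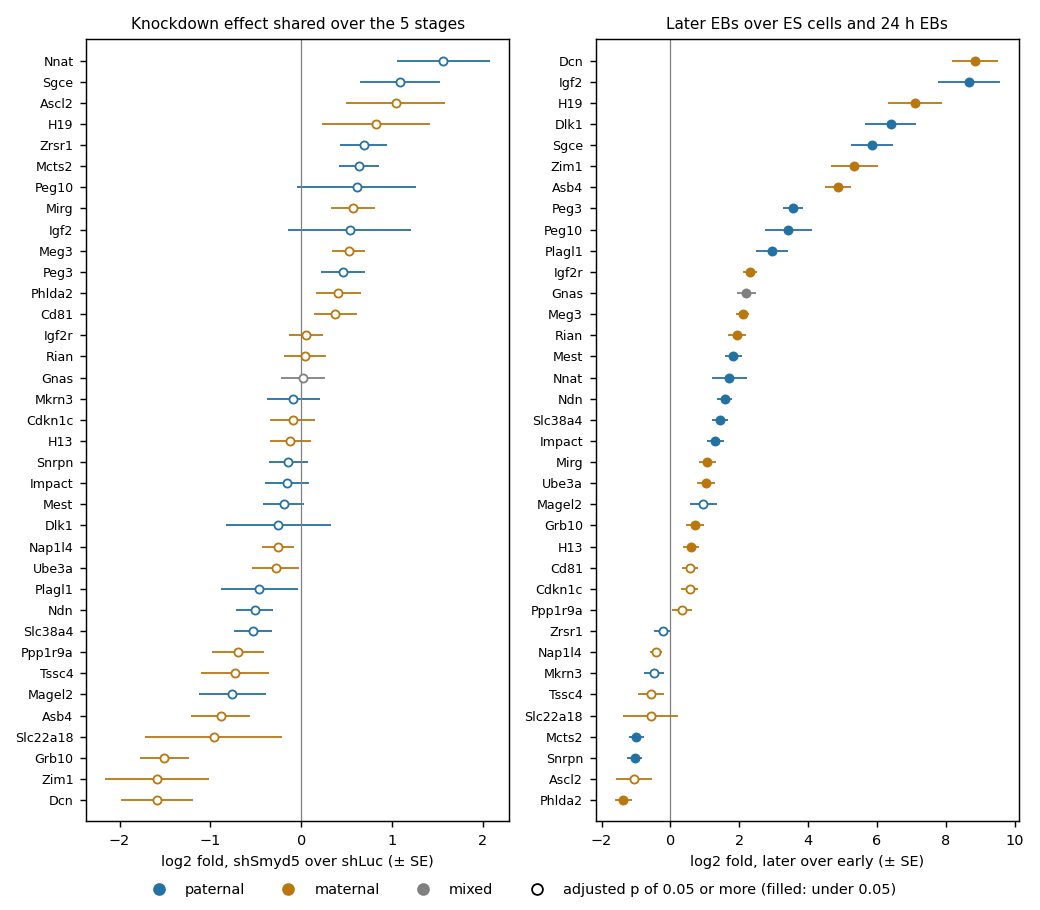
The left plot gives, for each of the 36 imprinted genes tested, the log2 fold of shSmyd5 over shLuc shared over the 5 stages, and the right plot the log2 fold of later EBs (days 6 to 14) over ES cells and 24 h EBs, each with its standard error from edgeR. Filled points have an adjusted p under 0.05: none on the left, and 26 on the right, 23 of them above 0.

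The largest rises were those of Dcn, Igf2, H19 and Dlk1. Dcn, which encodes the matrix proteoglycan decorin, rose by a log2 fold of 8.84 ± 0.67 (SE, edgeR adjusted p = 8.21e-06), and Igf2, the fetal growth factor, by 8.68 ± 0.89 (adjusted p = 2.79e-05). H19, the noncoding RNA downstream of Igf2, rose by 7.11 ± 0.77, and Dlk1, a transmembrane relative of the Notch ligands, by 6.40 ± 0.74. These 4 rises kept their call when any 1 stage was left out, but not their size or order: Dcn then lay between 6.14 (without ES cells) and 11.70 (without 24 h), Igf2 between 7.81 and 9.73, H19 between 6.38 and 8.08, and Dlk1 between 5.00 and 8.40. Sgce (5.86), Zim1 (5.35), Asb4 (4.86), Peg3 (3.56), Peg10 (3.43) and Plagl1 (2.95) followed. The rise of Peg10 rested on the ES cell libraries, since without them the log2 fold was 1.07 (adjusted p = 0.0761), and without the 24 h libraries it was 6.10.

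The 3 members that fell were Phlda2, a brake on placental growth (-1.36 ± 0.25), Snrpn, which encodes a splicing protein of neurons (-1.03 ± 0.22), and Mcts2, a retrogene (-0.99 ± 0.22). Each fall lost its call when 1 stage was left out. Phlda2 was then at -0.71 without ES cells (adjusted p = 0.0845), Snrpn at -0.31 without day 14 (adjusted p = 0.371) and Mcts2 at -0.07 without 24 h (adjusted p = 0.859). Snrpn was also at -1.77 without day 6 and Mcts2 at -1.91 without ES cells.

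Together the 39 members made up 0.207% of the summed RPKM in shSmyd5 ES cells and 0.240% in shLuc ES cells, and 1.87% in shSmyd5 day 14 EBs and 2.37% in shLuc day 14 EBs. Igf2 alone was 32.0% of the members' sum in shSmyd5 day 14 EBs and 39.4% in shLuc day 14 EBs. The most abundant member in ES cells of both lines was Phlda2. In shSmyd5 cells 19 members had their highest level at day 14 and 8 at day 10, against 20 and 6 in shLuc cells.

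The knockdown effect shared over the 5 stages passed the edgeR test (adjusted p under 0.05) for 0 of 12277 genes, and so for 0 of the 36 members. Smyd5, the gene knocked down, was itself not called (shared log2 fold -2.63 ± 0.51, SE, edgeR adjusted p = 0.107). The lack of calls is thus no evidence that a member was unchanged. At an unadjusted p under 0.05 there were 13 of 36 members, 6 higher and 7 lower in shSmyd5, against 11.6% of all genes. The higher ones were Nnat, Sgce, Zrsr1, Mcts2, Mirg and Meg3, and the lower ones Grb10, Dcn, Zim1, Asb4, Ppp1r9a, Slc38a4 and Ndn. DESeq2 called 336 genes, among them Grb10, Nnat and Zim1, while limma on log2 RPKM called 0. The smallest adjusted p of any gene was 0.0805, which Grb10 shared.

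Stage by stage, the members were described by the log2 fold of RPKM plus 0.1, shSmyd5 over shLuc, and called where this was at least 2-fold and 1 or both libraries had an RPKM of 3. The 95% interval given with a fold is the exact binomial interval of the reads and covers counting error only. In ES cells 0 members were 2-fold higher and 4 lower of 26 with enough RPKM (15.4%, against 15.8% of all genes, of which 4.52% higher and 11.3% lower). At 24 h 5 were higher and 1 lower of 24 (25%, against 17.3%, of which 13% higher and 4.26% lower). At day 6 there were 9 higher and 8 lower of 30 (56.7%, against 27.6%). At day 10 there were 0 higher and 4 lower of 33 (12.1%, against 9.66%, of which 3.15% higher and 6.51% lower). At day 14 there were 1 higher and 6 lower of 33 (21.2%, against 7.23%, of which 3.17% higher and 4.07% lower).

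The share at ES cells lay at the background, and the widest gap to it was at day 6. In the direction of higher values, day 6 had 9 of 30 members, against 8.18% of all genes, and 8 of 30 lower, against 19.4%. The median log2 fold of the members was -0.22, 0.31, 0.28, -0.16 and -0.12 over the stages, against -0.07, 0.17, -0.35, -0.05 and 0.01 over all genes. Scaling reads by TMM in place of library size moved the median of all genes by 0.11 in ES cells, -0.19 at 24 h and 0.35 at day 6. At day 6 the members then split into 13 higher and 5 lower of 32, against 14.2% of all genes higher and 10.1% lower with the same scaling. The higher calls gained were those of Peg3 (1.26), Cd81 (1.22), Mcts2 (1.04) and Dlk1 (1.96). With folds freed of a trend on GC content and length, 9 were higher and 3 lower of 30, against 11.3% and 10.1% of all genes. Among the higher calls Peg3 (1.36) was gained and Phlda2 (0.98) lost. The 5 lower calls lost were those of Ndn, Magel2, Ube3a, Rian and Impact. Over all stages, 23 of the 36 members were 2-fold apart at 1 or more stages, against 44.5% of all genes.

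**Figure D2:**
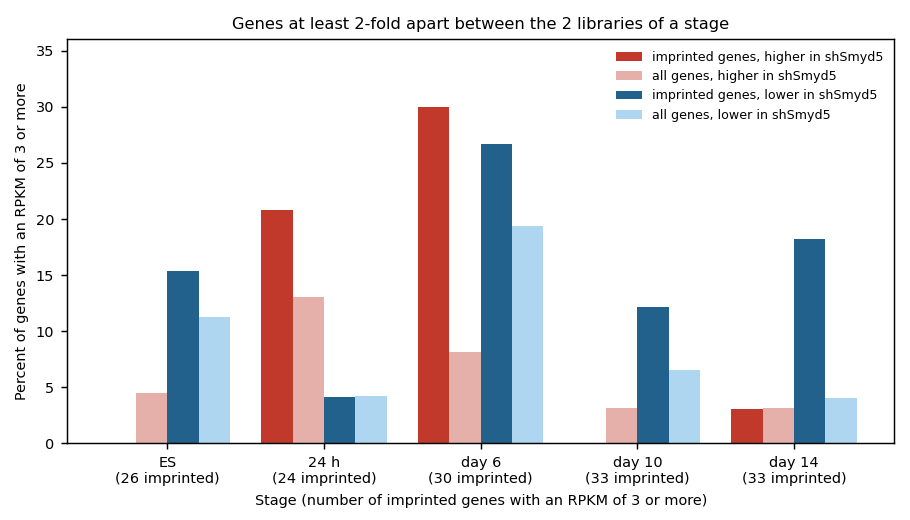
Bars give the percent of genes with an RPKM of 3 or more that were at least 2-fold higher (red) or lower (blue) in the shSmyd5 library than in the shLuc library of a stage, for imprinted genes (dark) and all genes (pale). At day 6, 9 of 30 imprinted genes were higher and 8 lower, and at day 14, 1 was higher and 6 lower of 33.

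**Figure D3:**
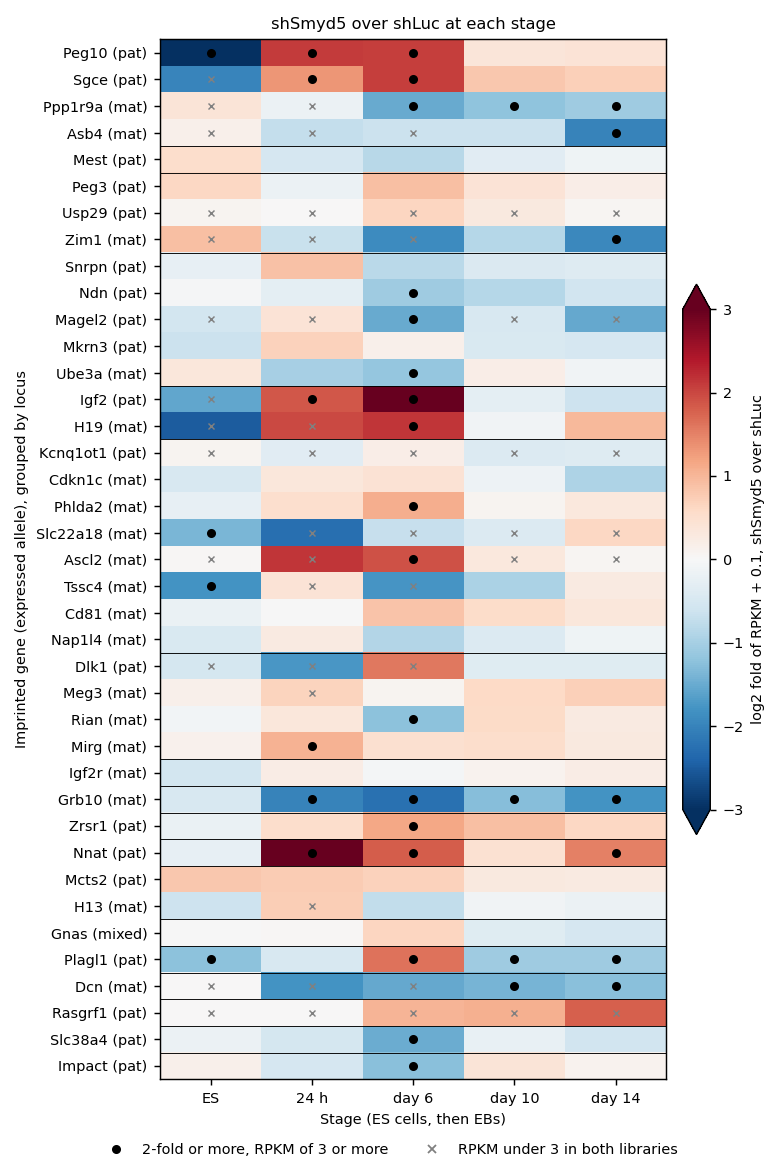
Each row is an imprinted gene, grouped by locus, and each column a stage. Colour is the log2 fold of RPKM plus 0.1, shSmyd5 over shLuc (red higher, blue lower, saturating at 3 either way), dots mark folds of 2 or more, and crosses mark genes under an RPKM of 3 in both libraries. Grb10 carries dots at 4 stages, all lower, and Peg10 is blue in ES cells and red at 24 h and day 6.

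At the Peg10-Sgce locus on chromosome 6 the paternally expressed pair was higher in shSmyd5 and its maternally expressed neighbours were lower from day 6 on. Peg10 (NM_001040611, 4697306 to 4710514 of mm9, the build of all member coordinates here, + strand) is a retrotransposon-derived gene needed for the placenta. Sgce (4624350 to 4697204, - strand) encodes epsilon-sarcoglycan, and the 2 genes start 101 bases apart on opposite strands. Peg10 was at an RPKM of 1.25, 285, 333, 573 and 809 in shSmyd5 cells, against 10.8, 66.8, 78.6, 445 and 613 in shLuc cells. Its shSmyd5 library was thus the lower in ES cells and the higher at each EB stage, with log2 folds of -3.01 (interval -3.32 to -2.90), 2.09 (2.06 to 2.12), 2.08 (2.07 to 2.10), 0.36 and 0.40. Sgce was at 0.0291, 4.86, 42.8, 44.6 and 59.5 in shSmyd5 cells, against 0.412, 1.89, 10.1, 25.4 and 36.2 in shLuc cells. It followed Peg10 in direction at every stage, with a log2 fold of 1.32 at 24 h and 2.07 at day 6, though in ES cells it rested on 2 reads in shSmyd5 and 4 in shLuc.

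Farther along, Ppp1r9a (4853004 to 5115661), which encodes the actin-binding protein neurabin, and Asb4 (5333386 to 5383022), an ankyrin repeat protein of the SOCS box family, were lower. Ppp1r9a was at 1.91, 2.11, 1.57, 2.51 and 1.78 in shSmyd5 cells, against 1.44, 2.40, 4.67, 5.87 and 3.82 in shLuc cells, more than 2-fold lower at days 6, 10 and 14. Asb4 was at 0.193, 0.182, 1.05, 15.3 and 9.77 in shSmyd5 cells, against 0.164, 0.365, 1.71, 23.7 and 39.8 in shLuc cells. Its day 14 libraries were the farthest apart, with a log2 fold of -2.01 (-2.12 to -1.94). Casd1 lies 30968 bases from Sgce. It was at 2.18, 8.03, 10.8, 12.9 and 14.0 in shSmyd5 cells, against 1.38, 6.15, 8.51, 15.4 and 20.6 in shLuc cells. The lines were thus less than 2-fold apart in Casd1 at every stage.

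**Figure D4:**
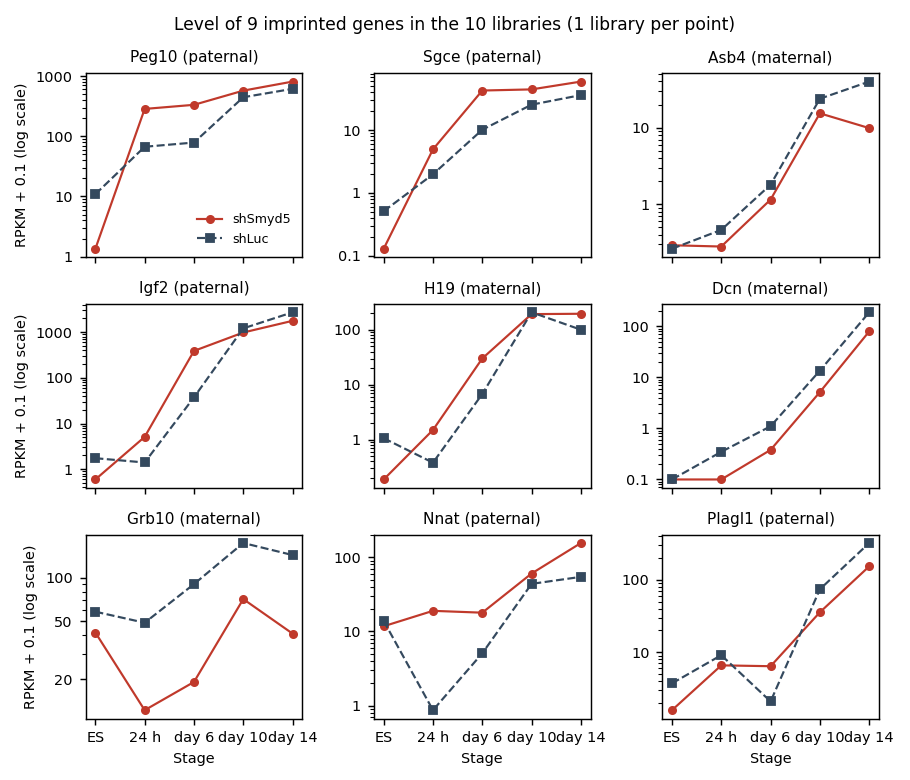
RPKM plus 0.1 on a log axis over the 5 stages for 9 imprinted genes, with shSmyd5 as red circles and shLuc as dark squares, 1 library per point. Grb10 lies lower in shSmyd5 at every stage, Nnat is at 0.775 at 24 h in shLuc, and Igf2 and H19 are higher in shSmyd5 at 24 h and day 6.

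Grb10 was lower in shSmyd5 at every stage. It encodes an adaptor protein that restrains signalling from the insulin and IGF1 receptors, and it is maternally expressed outside neurons (NM_010345, chromosome 11, 11830511 to 11938686, - strand). Grb10 was at an RPKM of 41.8, 12.1, 19, 71.1 and 41.1 in shSmyd5 cells, against 58.2, 48.8, 90.1, 173 and 143 in shLuc cells. The log2 folds were -0.48 (-0.55 to -0.40), -2.0, -2.24 (-2.28 to -2.20), -1.28 and -1.80, so that ES cells were the only stage less than 2-fold apart. In the shared fit the log2 fold was -1.51 ± 0.27 (SE, edgeR adjusted p = 0.0805), and it ranged between -1.78 and -1.32 when each stage was left out in turn. DESeq2 gave -1.53 (adjusted p = 3.38e-06).

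Being 2-fold lower at 4 or more stages was shared by 0.676% of the 12277 genes, and Dcn was the other such member, though under an RPKM of 3 at 2 of its 4 stages. Of the flanking genes, Ddc, which begins 32463 bases from Grb10 and is imprinted in the heart, was at 5.19, 12.004, 1.85, 5.58 and 8.12 in shSmyd5 cells, against 6.21, 20.1, 1.79, 4.46 and 10.4 in shLuc cells. Cobl, 197924 bases to the other side, was at 41.6, 41.8, 1.34, 0.615 and 0.619 in shSmyd5 cells, against 39.8, 56.7, 5.10, 1.56 and 2.05 in shLuc cells. Ddc was less than 2-fold apart at every stage, and Cobl was lower at the 4 EB stages (shared log2 fold -1.0 ± 0.28, edgeR adjusted p = 0.23).

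At the Igf2-H19 locus on chromosome 7 both genes were higher in shSmyd5 at 24 h and day 6. Igf2 (NM_010514, 149836673 to 149852721) is paternally expressed and H19 (NR_001592, 149761434 to 149764048) maternally expressed, and they share enhancers through a control region methylated on the paternal copy. Igf2 was at an RPKM of 0.496, 5.00, 389, 985 and 1776 in shSmyd5 cells, against 1.64, 1.30, 37.4, 1214 and 2729 in shLuc cells. The day 6 libraries differed by a log2 fold of 3.38 (3.35 to 3.41), and by day 14 the shSmyd5 library was the lower by -0.62. H19 was at 0.0872, 1.40, 30.0, 194 and 197 in shSmyd5 cells, against 0.959, 0.279, 6.67, 209 and 101 in shLuc cells.

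H19 thus moved with Igf2 at day 6 and was apart from it at day 14, where its log2 fold was 0.97. In ES cells and at 24 h H19 had the same direction as Igf2, but on few reads. In ES cells H19 held 9 reads in shSmyd5 and 14 in shLuc, and Igf2 79 and 37, both genes under an RPKM of 3. At 24 h H19 was also under an RPKM of 3, with 14 reads in shLuc. Endoderm markers moved with Igf2 and H19 at day 6. Of the 14, 12 were at least 2-fold higher in shSmyd5 and 0 lower, against 8.18% and 19.4% of all genes. None of these markers was at 0 in either library, and 14 of them reached an RPKM of 3 in shSmyd5 day 6 EBs against 9 in shLuc. Their part in the difference was not tested. Igf2r, the maternally expressed receptor that clears IGF2 from outside the cell, was at 5.02, 3.12, 9.14, 51.3 and 35.9 in shSmyd5 cells, against 7.4, 2.68, 9.56, 47.9 and 30.7 in shLuc cells, less than 1.5-fold apart at every stage.

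Nnat, a paternally expressed proteolipid gene, was at 11.7, 18.9, 17.8, 60.1 and 155 in shSmyd5 cells, against 13.8, 0.775, 4.99, 43.6 and 54.2 in shLuc cells. The 24 h libraries stood farthest apart of any member and stage, with a log2 fold of 4.44 (3.94 to 5.37), and day 6 (1.81) and day 14 (1.51) were also over 2-fold. The shLuc value at 24 h rested on 18 reads. Freed of GC content and length, the 24 h fold was 3.54, under the 3.90 of Igf2 at day 6. The shared log2 fold was 1.56 ± 0.52 (edgeR adjusted p = 0.281, DESeq2 adjusted p = 0.0193). Nnat (NM_010923, chromosome 2, 157385814 to 157388258, + strand) lies within an intron of Blcap on the - strand and overlaps 0 bases of its exons. Blcap was at 4.55 in shSmyd5 and 3.63 in shLuc EBs at 24 h, and 7.08 and 6.48 at day 6, a smaller difference than that of Nnat.

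Plagl1, a paternally expressed zinc finger transcription factor (chromosome 10, 12810497 to 12851500), changed direction with the stage. It was at 1.48, 6.48, 6.30, 35.6 and 154 in shSmyd5 cells, against 3.61, 9.01, 1.98, 74.2 and 324 in shLuc cells. The log2 fold was -1.23 (-1.61 to -0.96) in ES cells, 1.62 (1.54 to 1.80) at day 6, -1.06 at day 10 and -1.07 at day 14. The last values were at the 2-fold line: -0.97 at day 10 with TMM scaling, and -0.99 at day 14 when freed of GC content and length.

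Dcn (chromosome 10, 96942245 to 96980777), maternally expressed in placenta, was listed at 0, 0, 0.280, 5.06 and 79.4 in shSmyd5 cells, against 0, 0.248, 1.00, 13.5 and 189 in shLuc cells. It was lower in shSmyd5 at each EB stage, and at 24 h 0 reads stood against 9. Day 10 (log2 fold -1.40) and day 14 (-1.25, -1.29 to -1.20) had enough RPKM for a call, and the shared log2 fold was -1.59 ± 0.39 (edgeR adjusted p = 0.192). Decorin is a product of fibroblasts, and fibroblast and mesenchyme markers leaned the same way at days 10 and 14. Of the 12 with an RPKM of 3 at day 10, 5 were 2-fold lower and 1 higher (6.51% and 3.15% of all genes). Of the 13 at day 14, 3 were 2-fold lower and 0 higher (4.07% and 3.17% of all genes). None was at 0 at either stage. At 24 h and day 6 the markers summed to more in shSmyd5 (99.5 and 84.0) than in shLuc (60.9 and 53.5). Their part in the difference was not tested.

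At the Peg3-Zim1 locus on chromosome 7 the paternal gene was higher in shSmyd5 and the maternal gene lower from day 6 on. Peg3, a large zinc finger protein gene (6656603 to 6683132), was at 18.5, 2.90, 44.7, 179 and 183 in shSmyd5 cells, against 12.1, 3.27, 23.7, 135 and 160 in shLuc cells, with a highest log2 fold of 0.91 at day 6. That fold was 1.26 with TMM scaling and 1.36 when freed of GC content and length. Zim1 (6628154 to 6649161), 7441 bases away, was at 0.0868, 0, 0.0754, 3.91 and 4.15 in shSmyd5 cells, against 0, 0.0595, 0.548, 7.12 and 16.2 in shLuc cells. Zim1 was lower in shSmyd5 from 24 h on, with a log2 fold of -1.94 (-2.10 to -1.83) at day 14, while the shLuc ES cell library and the shSmyd5 24 h library had 0 reads. Usp29, which shares the Peg3 promoter region, stayed at or under 2.25 in shSmyd5 and 2.17 in shLuc cells.

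Over the whole set, the day 6 calls were 6 higher and 4 lower among 15 paternally expressed members with enough RPKM, and 3 higher and 4 lower among 14 maternally expressed ones, against 8.18% of all genes higher and 19.4% lower. At day 14 they were 1 higher and 1 lower of 15 paternally expressed members, and 0 and 5 of 17 maternally expressed ones, against 3.17% and 4.07% of all genes. The 5 maternal members lower at day 14 were Ppp1r9a, Asb4, Zim1, Grb10 and Dcn. The difference between the alleles was not tested.

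At the Dlk1-Meg3 locus on chromosome 12 the noncoding RNAs of the maternal copy were present throughout and dipped at 24 h. Meg3 (NR_003633, 110779211 to 110809936) was at 7.62, 1.68, 11.5, 23.0 and 23.4 in shSmyd5 cells, against 6.88, 1.01, 10.8, 15.1 and 14.3 in shLuc cells. This transcript was higher in shSmyd5 at all 5 stages by at most 0.71 on the log2 scale (shared log2 fold 0.52 ± 0.18, edgeR adjusted p = 0.296), while the other listed Meg3 transcripts, NR_027651 and NR_027652, were lower in shSmyd5 in ES cells (4.90 against 5.82 and 35.9 against 41.7 in shLuc) and at day 6 (5.88 against 6.22 and 29.4 against 32.4). Rian was at 29.0, 5.45, 17.1, 106 and 72.9 in shSmyd5 cells, against 30.8, 4.26, 40.3, 71.1 and 60.6 in shLuc cells. Rian was 2-fold lower at day 6 alone (-1.23). Mirg was at 12.95, 3.33, 14.2, 16.6 and 16.1 in shSmyd5 cells, against 11.9, 1.56, 10.1, 11.4 and 13.2 in shLuc cells. It was 2-fold higher at 24 h alone (1.04), on 39 reads in shLuc. That fold was 0.89 with TMM scaling and 0.85 when freed of GC content and length. Dlk1 (110691033 to 110701546), the paternal partner, was at 0.572, 0.00551, 2.06, 61.9 and 160 in shSmyd5 cells, against 0.867, 0.252, 0.625, 79.6 and 207 in shLuc cells. It was thus near the floor up to 24 h in both lines and within 1.5-fold between them at days 10 and 14.

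Of the 36 members, 4 were higher in shSmyd5 at all 5 stages, if by little at some and for Meg3 in 1 of its 3 transcripts (Meg3, Mcts2, Mirg and Ascl2, against 4.8% of all genes), and 3 lower (Grb10, Slc38a4 and Ndn, against 6.19% of all genes). With TMM scaling and with folds freed of GC content and length, Meg3, Mcts2, Grb10 and Slc38a4 held their sign at every stage, while Mirg, Ascl2 and Ndn each changed it at 1 stage. Slc38a4, a paternally expressed amino acid transporter, was at 12.3, 31.2, 18.9, 86.8 and 98.6 in shSmyd5 cells, against 13.8, 44.7, 53.3, 101 and 147 in shLuc cells. Day 6 stood apart, with a log2 fold of -1.49 (-1.54 to -1.45).

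The imprinted retrogenes Mcts2 and Zrsr1 were higher in shSmyd5 at the 4 EB stages. Mcts2 (chromosome 2, 152512884 to 152513676), which lies in an intron of H13, was at 26.4, 69.8, 30.3, 18.1 and 20.8 in shSmyd5 cells, against 15.1, 41.0, 18.8, 14.7 and 17.1 in shLuc cells. Its host H13, a maternally expressed signal peptide peptidase gene, was at 4.26, 2.41, 2.18, 7.18 and 8.36 in shSmyd5 cells, against 6.6, 1.40, 3.71, 7.71 and 9.49 in shLuc cells. Mcts2 was thus higher in shSmyd5 by log2 folds between 0.28 and 0.80, and H13 was higher at 24 h alone, where another of its transcripts, NM_001159552, was not. Zrsr1 (chromosome 11, 22873215 to 22876498), a splicing factor retrogene within Commd1, was at 3.03, 11.4, 8.99, 5.86 and 8.60 in shSmyd5 cells, against 3.47, 7.91, 3.98, 3.06 and 5.54 in shLuc cells, with its only 2-fold call at day 6 (1.16). Both retrogenes have near copies on the X chromosome, and Zrsr1 overlaps 203 bases of Commd1 exons on the other strand, so their reads may be shared and their levels are uncertain.

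The Kcnq1ot1-Cdkn1c domain of chromosome 7 is silenced on the paternal copy around the noncoding RNA Kcnq1ot1. Its 2-fold calls were in ES cells and at day 6. Kcnq1ot1 itself was at or under 0.206 in shSmyd5 and 0.289 in shLuc cells. Cdkn1c, the CDK inhibitor p57, was at 9.58, 115, 14.5, 99.7 and 106 in shSmyd5 cells, against 13.5, 90.1, 10.8, 111 and 201 in shLuc cells, and so had a peak at 24 h in both lines. Phlda2 was at 100.3, 39.3, 27.8, 48.5 and 25.6 in shSmyd5 cells, against 119, 27.9, 12.9, 45.6 and 20.7 in shLuc cells, 2-fold higher at day 6 alone (1.10, or 0.98 when freed of GC content and length). The 2-fold calls in ES cells were those of Tssc4 (log2 fold -1.78, -2.05 to -1.54) and of the transporter gene Slc22a18 (-1.36, or -0.80 when freed of GC content and length). Tssc4 was at 6.94, 2.50, 0.713, 8.36 and 5.63 in shSmyd5 cells, against 24.2, 1.87, 2.65, 16.1 and 4.68 in shLuc cells. Slc22a18 was at 2.44, 0, 0.155, 0.809 and 1.10 in shSmyd5 cells, against 6.43, 0.381, 0.309, 1.11 and 0.685 in shLuc cells. Both thus had their highest level in shLuc ES cells. Ascl2, a trophoblast transcription factor, was at 3.12 in shSmyd5 and 0.759 in shLuc day 6 EBs, also a 2-fold call (log2 fold 1.91). Cd81 and Nap1l4, at the edges of the domain, had no 2-fold call, though Cd81 at day 6 was at 1.22 with TMM scaling.

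In the Snrpn-Ube3a region of chromosome 7, which in humans is tied to the Prader-Willi and Angelman syndromes, the 2-fold calls were at day 6. Ndn, which encodes necdin, was at 5.51, 8.20, 6.34, 27.2 and 41.1 in shSmyd5 cells, against 5.64, 10.0, 13.4, 49.0 and 60.9 in shLuc cells. Magel2 was at 0.337, 1.07, 1.86, 1.36 and 0.318 in shSmyd5 cells, against 0.538, 0.782, 5.52, 1.92 and 1.11 in shLuc cells. Ube3a, an E3 ubiquitin ligase imprinted in neurons, was at 7.55, 11.0, 14.6, 30.0 and 26.6 in shSmyd5 cells, against 5.90, 22.0, 32.6, 26.0 and 28.8 in shLuc cells. All 3 were thus 2-fold lower in shSmyd5 at day 6, and Magel2 was at -0.94 when freed of GC content and length. Ube3a at 24 h was just short of a call, at a log2 fold of -0.997. That fold was -1.18 with TMM scaling and -0.51 when freed of GC content and length. Snrpn was at 46.7, 67.2, 53.4, 29.0 and 9.61 in shSmyd5 cells, against 55.8, 36.7, 94.2, 39.1 and 12.6 in shLuc cells, with no 2-fold call, and neither had Mkrn3, at 2.31, 7.23, 4.29, 3.02 and 2.42 in shSmyd5 cells, against 3.66, 4.42, 3.87, 4.19 and 3.46 in shLuc cells.

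The remaining members had few 2-fold calls. Impact, a regulator of translation on chromosome 18, was at 15.5, 16.4, 30.8, 55.0 and 55.8 in shSmyd5 cells, against 14.0, 23.3, 73.6, 41.9 and 51.5 in shLuc cells. It had a log2 fold of -1.25 at day 6 and was otherwise less than 1.5-fold apart. The day 6 folds of Impact, Ndn, Rian and Ube3a were all under 2-fold with TMM scaling (-0.90, -0.72, -0.89 and -0.81) and when freed of GC content and length. Mest, a hydrolase gene, was at 41.2, 43.4, 22.0, 385 and 457 in shSmyd5 cells, against 28.8, 61.5, 39.2, 484 and 498 in shLuc cells. Gnas, which encodes the stimulatory G protein alpha subunit, was at 99.2, 149, 815, 475 and 644 in shSmyd5 cells, against 99.5, 145, 521, 612 and 920 in shLuc cells. Neither had a 2-fold call in the transcript kept, though the Gnas transcript NM_019690 was at 1.24 in shSmyd5 and 7.53 in shLuc day 6 EBs. Rasgrf1 stayed under an RPKM of 1 in all 10 libraries.

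A list of 19 genes held those that maintain or set imprints, and Tet1 and Tet2, which take part in removing DNA methylation. Of the 19, 0 were 2-fold higher and 7 lower in shSmyd5 at day 6 (8.18% of all genes were higher and 19.4% lower). Their median log2 fold was -0.86, against -0.35 over all genes. At the other stages the count lower was 1, 1, 0 and 1 (ES cells, 24 h, day 10 and day 14), and that higher 1, 3, 1 and 1. Zfp57 was at 190, 166, 9.56, 15.1 and 19.3 in shSmyd5 cells, against 136, 222, 12.3, 17.0 and 20.5 in shLuc cells, less than 2-fold apart at each stage. Trim28 was at 434, 237, 52.9, 106 and 71.9 in shSmyd5 cells, against 970, 138, 105, 198 and 69.7 in shLuc cells.

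Dnmt1 was lower in shSmyd5 by less than 2-fold at each stage (shared log2 fold -0.33 ± 0.18, edgeR adjusted p = 0.493), and its cofactor Uhrf1 had a shared log2 fold of -0.60 ± 0.18 (adjusted p = 0.262). Dnmt3l, the cofactor of germ line DNA methylation, was at 184, 163, 17.5, 13.1 and 4.62 in shSmyd5 cells, against 122, 32.9, 9.17, 2.30 and 1.64 in shLuc cells. It was higher at all 5 stages (shared log2 fold 1.62 ± 0.28, edgeR adjusted p = 0.0805). Dppa3, which protects maternal imprints in the zygote, was at 24.9, 4.23, 5.62, 2.03 and 0.469 in shSmyd5 cells, against 9.64, 5.28, 23.1, 2.97 and 7.34 in shLuc cells.

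Of 33 further imprinted genes outside the set, 18 were tested in the shared fit, and 0 had an adjusted p under 0.05. At day 6, 2 were 2-fold higher and 2 lower of 10 with an RPKM of 3, against 8.18% of all genes higher and 19.4% lower. Of 20 genes that neighbour the domains and are not known as imprinted, 0 were 2-fold higher and 1 lower of 12 at day 6 against the same shares, and over the stages 6 of the 16 tested changed (65.3% of all genes did).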

How the data were processed

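The authors mapped single-end reads of polyA RNA to mm9 with Bowtie2 and CASAVA (versions not given in the sources used here) and deposited, per RefSeq transcript and library, the whole read count and the RPKM. The deposited RPKM values were checked to follow from the count, the length and a library total in 100% of values over 200 reads, within 1%. The cDNA carried no strand information. For each of the 22878 symbols the transcript with the highest mean count over the 10 libraries was kept, and 17 of the 39 members had more than 1. Coordinates came from GENCODE M1 on NCBIM37 (mm9), matched for 38 members. The deposited counts of the 12277 genes with a mean RPKM of 1 or more were fitted with edgeR 4.0.16 (R 4.3.3, quasi-likelihood, TMM) with the stage as a block and the line, and p-values were adjusted by Benjamini-Hochberg over all of them. The residual degrees of freedom were 4. Since each condition has 1 library, these p-values rest on how far the difference between the lines varied over the stages. This holds for the knockdown test and for the stage tests. Stage folds used a pseudocount of 0.1 in RPKM, and calls a fold of 2 and an RPKM of 3. Depth sets the 95% intervals of the reads, which cover counting error only. Simulated data tested the shared fit: at a biological coefficient of variation of 0.3346, that of these data, 22% of 2-fold and 99.5% of 4-fold effects were found among 12277 genes. The simulated effects were equal at every stage, and the variation was equal for every gene. The folds of these data differed between stages, so these shares need not hold for them. Smyd5 itself, at a shared log2 fold of -2.63, was not called.

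Alternatives were DESeq2 1.42.0, limma 3.58.1, other size factors, filters, pseudocounts, the longest transcript, no block, leaving out each stage and, chosen after seeing the data, limma on folds freed of a spline trend on GC content and length (38 members have a GC value). Python 3.11.15 with pandas 2.3.3, scipy 1.17.1 and matplotlib 3.10.9 did the rest. The members and lists were chosen with earlier results of these data known. Values in all libraries were given for members past a test of the shared fit, or 2-fold apart with an RPKM of 10, and for some others to complete a locus. Imprint maintenance genes named were Zfp57, Trim28, Dnmt1, Uhrf1, Dppa3 and Dnmt3l; Casd1, Blcap, H13, Cobl and Ddc were named as neighbours. Marker lists for trophoblast and cardiac muscle were counted and are not described.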

Additional observations from a re-analysis of the deposited data

Results flagged for a closer look

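Among folds with an RPKM of 3 in 1 or both libraries, Peg10 and Plagl1 had opposite signs at 2 stages. Each of these folds was beyond 2-fold with intervals of the reads away from 0. Igf2, H19, Sgce and Dlk1 also had opposite signs beyond 2-fold, but with an RPKM under 3 in both libraries at 1 or both of the stages. For Peg10 the log2 fold of shSmyd5 over shLuc was 2.09 at 24 h and -3.01 in ES cells, 5.10 apart. For Plagl1 it was 1.62 at day 6 and -1.23 in ES cells, 2.85 apart. With 1 library per condition neither difference was tested. The shLuc ES cell library, with 3895541 reads in genes, held 403 reads of Peg10, and the shSmyd5 ES cell library 330 among 26283011.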

How the results depend on the processing

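The shared knockdown test called 0 genes and 0 imprinted genes with edgeR, and so it did with other size factors, with library sizes alone, with limma, with a mean RPKM of 3, with the longest transcript and with no replicate block (0 genes, the stage being the pairing). DESeq2 called 336 genes and 3 imprinted genes, and the filter of 10 reads over all libraries 65 genes and 1 imprinted gene (Grb10, adjusted p = 0.0342). Leaving out 1 stage gave 0 to 6 genes and 0 imprinted genes. The stage effect was called for 31 imprinted genes, and for 27 to 34 under the alternatives. With a fold of 1.5 the members apart numbered 8 of 26 in ES cells (30.8%, against 42.8% of all genes), 10 of 24 at 24 h (41.7%, against 40.1%), 25 of 30 at day 6 (83.3%, against 53.3%), 11 of 33 at day 10 (33.3%, against 26.5%) and 13 of 33 at day 14 (39.4%, against 22.2%). With an RPKM of 10 they numbered 2 of 17 in ES cells (11.8%, against 15%) and 3 of 15 at 24 h (20%, against 13.3%). Freed of GC content and length, the median fold of the members was -0.01 at 24 h and 0.05 at day 10. Over all genes the fold had a rank correlation with GC content of -0.66 in ES cells and 0.55 at 24 h, a description across genes, which are not replicates. The causes were not tested. Of 26 folds called with an RPKM of 10 in 1 or both libraries, 5 came under 2-fold with TMM scaling and 6 when freed of GC content and length. With a pseudocount of 1, 1 did so (Ndn at day 6), and none changed sign. Calls under that RPKM were not in this count. Of those, Mirg at 24 h came under 2-fold with both TMM scaling and freed folds. Ppp1r9a at day 14, Slc22a18 in ES cells and Magel2 at day 6 did so with freed folds. Members under about 1 RPKM in ES cells rest on few reads, since the shLuc library held 3895541 in genes.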

Other observations

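Sfmbt2, a paternally expressed Polycomb-related gene that was not among the 39, had a shared log2 fold of 1.21 ± 0.31 (SE, edgeR adjusted p = 0.192), the second highest of the 18 further imprinted genes tested, after Airn, the antisense noncoding RNA of the Igf2r locus (2.23 ± 1.19, adjusted p = 0.494), which overlaps Igf2r and whose level is thus uncertain. Among lineage markers in the shared fit, 8 of 14 endoderm markers had an unadjusted p under 0.05, all higher in shSmyd5, and 4 of 9 neural markers, all lower, against 11.6% of all genes, and none had an adjusted p under 0.05.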
